A study of Homo sapiens with 2 samples.

Results

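The genes described here are 10 loci of megakaryocyte and platelet biology, or genes overlapping them, out of 58347 genes in a count table of RNA crosslinked to U2AF2. They were taken by symbol, through the Ensembl identifier without its version, and all 10 were found. Of these, 8 are genes of megakaryocytes and platelets (THBS1, GP1BA, GP6, ITGA2B, RAB27B, MYLK, MEIS1 and FLI1). AC037198.2 is an antisense RNA gene within THBS1, and CHRNE, the gene of a muscle acetylcholine receptor subunit, lies opposite GP1BA. For each locus the counts of all genes that overlap it on the other strand were also summed. The study held 1 group of 2 biological replicates of untreated HEL cells, an established human erythroleukemia line, profiled by eCLIP. In that assay ultraviolet light fixes RNA to protein, an antibody recovers the protein, here U2AF2, and the attached RNA fragments are sequenced. The ultraviolet dose was 400 mJ per cm2 for both libraries. No input or control library was analysed here, so no value is an enrichment, and levels were compared between genes and between replicates.

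U2AF2 forms the larger part of U2AF, a factor that marks introns for splicing. It binds the polypyrimidine tract that lies before most 3′ splice sites, and U2AF1, its partner, contacts the AG that ends the intron. Megakaryocytes are the bone marrow cells that release platelets, and their gene programme includes adhesion receptors, secreted granule proteins, a contractile cytoskeleton and a small set of transcription factors.

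The antisense gene AC037198.2 held the second highest level of any gene in the table with a gene model, and the sequence it covers shows what lies on the other strand. The gene (GRCh38, chr15:39588357-39588882, minus strand, 526 bases, a single exon) covers exon 10 of THBS1, numbered along its coding transcript with 22 exons, the last 169 bases of the intron before that exon and the first 183 bases of the next intron. The stretch below is the first 209 bases of that region read on the THBS1 strand, at chr15:39588357-39588565. It was derived from the GENCODE 29 transcript of AC037198.2 by reverse complement, with intron bases in lower case and the first 40 bases of THBS1 exon 10 in capitals.
THBS1 intron end and exon 10 start: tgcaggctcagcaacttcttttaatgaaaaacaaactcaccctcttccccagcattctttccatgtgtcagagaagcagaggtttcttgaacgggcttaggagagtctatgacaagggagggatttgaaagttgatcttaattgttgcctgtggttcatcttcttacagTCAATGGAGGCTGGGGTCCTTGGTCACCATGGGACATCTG

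Other 3′ splice sites of these loci are shown because they lie inside exons of an opposite-strand gene, as the THBS1 site does, or, for ITGA2B, because that gene has no opposite-strand gene at all. Each line gives the last 40 bases of an intron and the first 3 bases of the exon on the strand of the gene named, with the longest unbroken run of pyrimidines in capitals. The sequences were read from GENCODE 29 transcripts (GRCh38) that span the site. In GENCODE 29 the THBS1 site at exon 10 also lies inside an exon of FSIP1.
THBS1 at exon 10, inside AC037198.2, chr15:39588486-39588528: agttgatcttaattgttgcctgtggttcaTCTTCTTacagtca
THBS1 inside FSIP1, chr15:39594059-39594101: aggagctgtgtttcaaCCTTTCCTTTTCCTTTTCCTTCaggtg
CHRNE inside C17orf107, chr17:4902761-4902803: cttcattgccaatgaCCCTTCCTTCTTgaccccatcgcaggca
MYLK inside MYLK-AS1, chr3:123629624-123629666: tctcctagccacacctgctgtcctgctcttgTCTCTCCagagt
ITGA2B with no opposite-strand gene, chr17:44385714-44385756: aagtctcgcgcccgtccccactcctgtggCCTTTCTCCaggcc

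In these 40 bases the THBS1 site inside AC037198.2 held 62.5% pyrimidines with a longest run of 7 bases. That equals the median of 62.5% over 36221 sites of protein-coding genes whose sequence some transcript spans (quartiles 55% and 67.5%). The other THBS1 site shown, inside FSIP1 but not AC037198.2, held 72.5% with a run of 22 bases. The CHRNE site shown held 70%, the highest of the 8 sites of CHRNE inside C17orf107. The MYLK site held 75%, and the ITGA2B site shown held 70%, the highest of 8 ITGA2B sites with sequence, whose median was 61.3%. These are descriptions of letters and not of binding, and the table gives no counts per splice site.

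Gene counts summed to 995428 in replicate 1 and 1350116 in replicate 2, which were 2.66% and 2.60% of uniquely mapped reads. Almost all the rest were tallied as no feature, and that tally does not say whether such reads lie inside genes. CPM here is counts per 1e+06 gene counts after scaling of library size, and a count of 0 allows a level of up to 2.98 CPM in replicate 1 and 2.25 CPM in replicate 2. These limits rest on 3 counts, and they and all intervals below cover counting error only. The strand setting of the gene count is not given in the sources used here. Where the exons of a gene and of its partner on the other strand cover the same bases, the strand their reads came from therefore cannot be told apart. Megakaryocyte, erythroid, T cell, B cell and monocyte or granulocyte marker lists had 3 of 12, 2 of 12, 1 of 8, 0 of 7 and 2 of 8 genes at 10 or more counts in both libraries. Of protein-coding genes, 24.8% reached that minimum. In the megakaryocyte list GP1BA, GP6 and TUBB1 reached it, while PF4 and GP1BB were at 0 in both libraries. The erythroid, T cell, B cell and monocyte or granulocyte lists had 2, 1, 2 and 4 genes at 0 in both.

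Of the 10 genes, 8 had 10 or more counts in both libraries, with MEIS1 and ITGA2B below that. Of all genes counted, 15.4% reached this minimum, over protein-coding genes 24.8% and over antisense genes 37.6%. The members were chosen with their counts known, so the difference is a description. The levels per kb of exon ran in the order AC037198.2, GP1BA, GP6, CHRNE, THBS1, MYLK, FLI1, RAB27B, MEIS1 and ITGA2B. Only the last neighbours in that order, MEIS1 and ITGA2B, overlapped between their replicates. AC037198.2 averaged 8499 ± 219 CPM per kb of exon, GP1BA 124 ± 0.093, GP6 59.3 ± 5.38, THBS1 9.98 ± 0.482 and MEIS1 0.297 ± 0.163 (SD, n = 2).

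**Figure D1:**
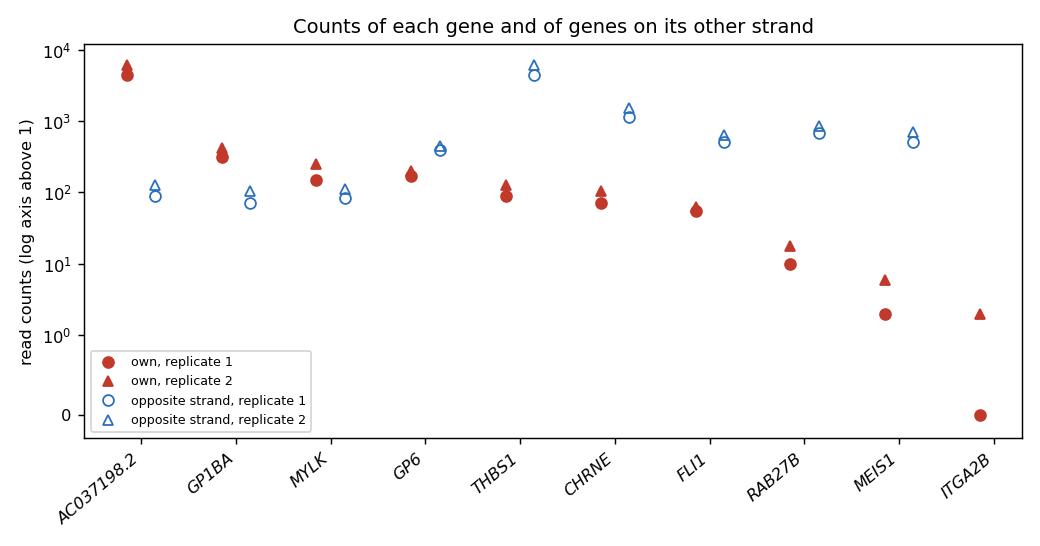
Read counts of the 10 genes (filled red, own counts) and summed counts of genes on the other strand (open blue), on a log axis above 1, with circles for replicate 1 and triangles for replicate 2. THBS1, CHRNE, FLI1, RAB27B, MEIS1 and GP6 lie below their opposite-strand sums in both replicates, and ITGA2B has no opposite-strand gene.

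THBS1 encodes thrombospondin 1, a glycoprotein stored in platelet alpha granules. Its own counts were 89 in replicate 1 and 126 in replicate 2, against 4443 and 6098 for the genes on its other strand. AC037198.2 held 4425 and 6068 of those, and FSIP1, the gene of a sperm fibrous sheath interacting protein, held 18 and 30. THBS1 thus held 1.96% of its own plus opposite-strand gene counts in replicate 1 (exact 95% binomial interval 1.58 to 2.41). In replicate 2 it held 2.02% (1.69 to 2.41), and the opposite-strand sum exceeded it 49.9-fold and 48.4-fold. Of the 526 exon bases of AC037198.2, 411 lie over exons of THBS1 merged over all its transcripts, retained introns included. Only 174 lie over its coding sequence. Where exons overlap, the strand of the reads cannot be told apart. The replicates agree within their intervals. AC037198.2 in turn averaged 4471 ± 115 CPM (SD, n = 2), rank 2 of the genes with a model both by CPM and by counts per kb of exon.

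The annotation of the minus strand bears on the THBS1 values. In GENCODE 29 an exon of FSIP1 shares 218 bases with AC037198.2 on the same strand, and only 14.5% of FSIP1 exon bases lie within THBS1. The identifier of FSIP1 in the count table carries another version than in GENCODE 29, so whether the counting used that exon is uncertain. AC037198.1, a sense intronic gene inside THBS1, held 4 and 0 counts.

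**Figure D2:**
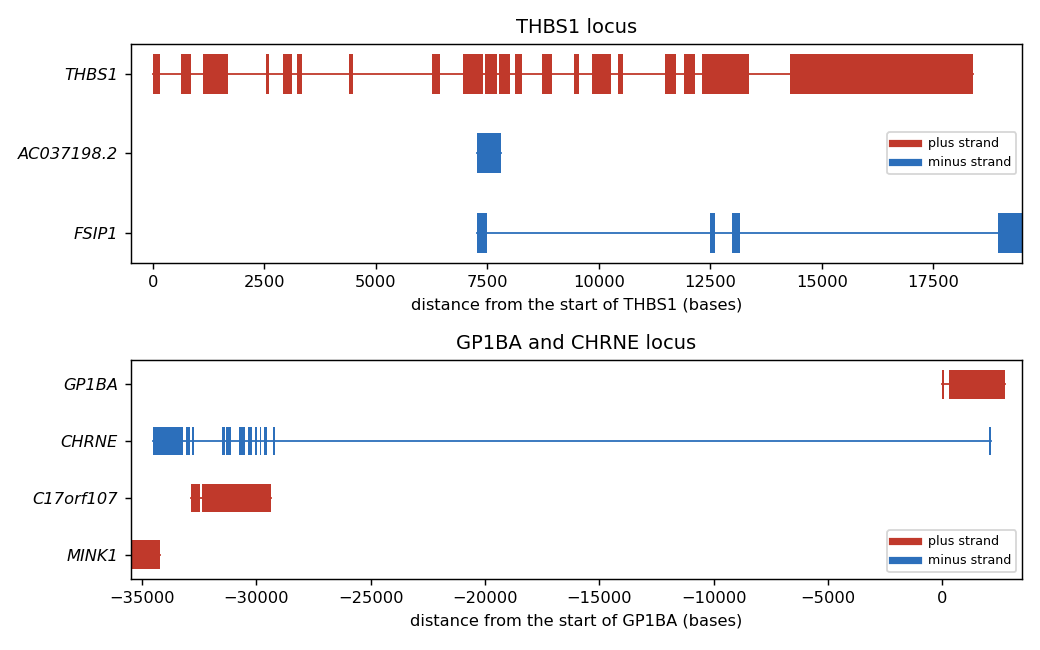
Exons (boxes, merged over all transcripts, retained introns included) and spans (lines) of genes at the THBS1 locus (top) and the GP1BA and CHRNE locus (bottom), by distance in bases from the start of THBS1 or GP1BA, with the plus strand in red and the minus strand in blue. AC037198.2 covers 526 bases in the middle of THBS1, and CHRNE reaches GP1BA by 1 exon far from the others.

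Among the adhesion receptors, GP1BA and GP6 held many counts and ITGA2B almost none. GP1BA encodes a chain of the von Willebrand factor receptor. It held 312 and 413 counts in replicates 1 and 2, against 71 and 106 for CHRNE on the other strand. Its own share was 81.5% (77.2 to 85.2) in replicate 1 and 79.6% (75.8 to 83.0) in replicate 2. The gene (chr17:4932297-4935030, plus strand) has 2 or 3 exons in its coding transcripts, and none of its 2 annotated 3′ splice sites lies in an exon of CHRNE.

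The overlap of CHRNE with GP1BA rests on little sequence. In GENCODE 29, CHRNE (chr17:4897774-4934438, minus strand) reaches GP1BA by 97 exon bases, which are 3.39% of CHRNE's exon bases. The CHRNE identifier in the count table has an earlier version than in GENCODE 29, so the counting may not have held that exon. CHRNE itself took 71 and 106 counts, against 1140 and 1534 for its 3 opposite-strand genes, an own share of 5.86% (4.61 to 7.34) and 6.46% (5.32 to 7.76). C17orf107, an open reading frame gene whose exons cover 8 of the 11 annotated 3′ splice sites of CHRNE, held 750 and 1030 of those counts. GP1BA held 312 and 413, and MINK1, a kinase gene that reaches CHRNE by 288 bases, held 78 and 91.

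GP6 encodes the platelet collagen receptor glycoprotein VI. It held 172 and 200 counts, against 398 and 442 for AC011476.3, an antisense gene that spans it. The own share of GP6 was 30.2% (26.4 to 34.1) in replicate 1 and 31.2% (27.6 to 34.9) in replicate 2. Only 44 of the 1374 exon bases of AC011476.3 lie within GP6, so most of the region that collects its counts is outside GP6. AC011476.2, on the same strand as GP6, held 17 and 29 counts and shares 270 exon bases with it.

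ITGA2B encodes the alpha chain of the fibrinogen receptor. It had no gene on its other strand and held 0 counts in replicate 1, which allows up to 2.98 CPM, and 2 counts in replicate 2. It has 29 annotated 3′ splice sites. Over the 9587 protein-coding genes with no opposite-strand gene the median was 2 counts over both libraries and 12.3% reached 10 counts in each. Over the 10230 with one the median was 9 counts and 36.6% reached it. ITGA2B was thus at the median of protein-coding genes without a partner.

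RAB27B, a small GTPase of granule secretion, held 10 and 18 counts, against 677 and 848 for AC098848.1, an antisense gene over the end of its span. Its own share was 1.46% (0.700 to 2.66) in replicate 1 and 2.08% (1.24 to 3.27) in replicate 2. AC098848.1 held 2690 counts per kb of exon, summed over both libraries, rank 44 of all genes with a model by that measure. Its exons hold no 3′ splice site of RAB27B. The nearest lies 69 bases away, and 72.1% of its exon bases fall within RAB27B.

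MYLK encodes a myosin light chain kinase of the contractile cytoskeleton. It held 151 and 251 counts, against 84 and 111 for 4 opposite-strand genes, and its own share was 64.3% (57.8 to 70.4) in replicate 1 and 69.3% (64.3 to 74.0) in replicate 2. MYLK-AS1, whose exons hold 1 of the 35 annotated 3′ splice sites of MYLK, had 66 and 88 of those counts and MYLK-AS2 had 17 and 23. AC020634.1 held 1 and 0 counts, and the small nucleolar RNA gene RF00392 held 0. The order at this locus depends on exon length, which is 22167 bases in MYLK, 980 in MYLK-AS1 and 827 in MYLK-AS2. Per kb of exon over both libraries MYLK held 18.1 counts, below MYLK-AS1 at 157 and MYLK-AS2 at 48.4. It lay above AC020634.1 at 1.82 and RF00392 at 0. MYLK was also the member whose replicates lay farthest apart by unadjusted p among those tested (exact binomial p = 0.0267, adjusted p = 0.471 by Benjamini-Hochberg), at 150 and 188 CPM.

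MEIS1 and FLI1 are transcription factors of hematopoietic stem cells and megakaryocytes, MEIS1 a homeobox protein and FLI1 of the ETS family. MEIS1 held 2 and 6 counts, against 504 and 704 on the other strand, almost all of them from MEIS1-AS2 with 504 and 703. Its own share was 0.395% (0.0479 to 1.42) in replicate 1 and 0.845% (0.311 to 1.83) in replicate 2, the lowest of the 9 genes with a partner. MEIS1-AS2 lies whole within MEIS1, and MEIS1-AS3 held 0 and 1 counts. The nearest 3′ splice site of MEIS1 coding transcripts lies 84 bases from the exons of MEIS1-AS2.

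FLI1 held 55 and 63 counts, against 506 and 627 on the other strand. SENCR, a long non-coding RNA gene within FLI1, had 279 and 367 of those, and AP001122.1 at the FLI1 promoter had 227 and 260. The own share of FLI1 was 9.80% (7.47 to 12.6) in replicate 1 and 9.13% (7.09 to 11.5) in replicate 2. Only 8.66% of the exon bases of AP001122.1 lie within FLI1, and its identifier too differs in version from GENCODE 29. With SENCR alone the own share over both libraries was 15.4%. The nearest 3′ splice site of FLI1 lies 52214 bases from the exons of SENCR.

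**Figure D3:**
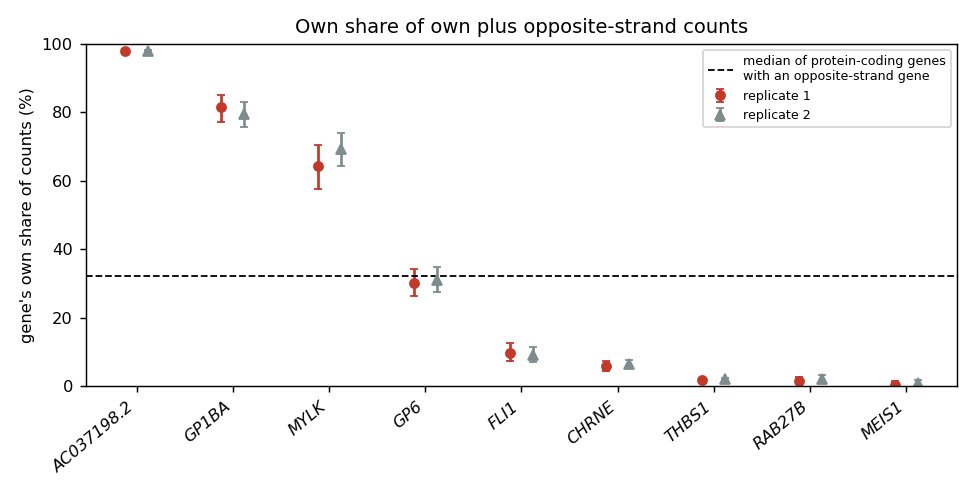
Own share (%) of each gene in own plus opposite-strand counts, for replicate 1 (red circles) and replicate 2 (grey triangles) with exact 95% binomial intervals. The dashed line is the median of protein-coding genes with an opposite-strand gene and any own or opposite-strand count. AC037198.2, GP1BA and MYLK lie above the median of 32.1%, GP6 has intervals that span it, and FLI1, CHRNE, THBS1, RAB27B and MEIS1 lie below.

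The opposite-strand sum exceeded the own count in both replicates at 6 of the 9 loci with a partner, namely THBS1, CHRNE, RAB27B, MEIS1, FLI1 and GP6. AC037198.2, GP1BA and MYLK were the exceptions by counts. Per kb of exon MYLK was no exception, and the opposite strand was the higher at 7 of the 9 loci. By counts, the opposite-strand sum was the higher in both replicates for 51.0% of the 10230 protein-coding genes with an opposite-strand gene. For those with at least 10 own counts in both libraries it was 38.8%. The 9 loci differ from these sets, as AC037198.2 is not protein-coding and MEIS1 held fewer than 10 own counts in each library. Over the 9851 of the 10230 genes with any own or opposite-strand count, the median own share was 32.1% (quartiles 5.09% and 80.7%). These loci are pairs that share counts, since THBS1 is the partner of AC037198.2 and CHRNE of GP1BA. The count is a description and is not independent evidence of a direction.

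Replicates were compared with an exact, two-sided binomial test of each gene at the scaled library sizes, adjusted over 8983 genes by Benjamini-Hochberg. It called 0 of the 8 members tested, where 0.501% of all genes tested were called, and 1 member, MYLK, had an unadjusted p below 0.05. With the dispersion that edgeR estimates from both libraries as 1 group, its exact test called 0 members and gave 0 unadjusted. That dispersion already holds the difference between the libraries, so this result adds no support. A p that misses the threshold does not show equal levels.

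By level over both libraries, the genes nearest to AC037198.2 were MFSD11, TTN and NEIL1, at distances of 0.126, 0.180 and 0.365 in log2 CPM. MFSD11 and NEIL1 also lie opposite a protein-coding gene (SRSF2 and MAN2C1), and TTN does not. Nearest to GP1BA were the antisense genes CFLAR-AS1, KDM4A-AS1 and AL450998.2, at 0.0282, 0.0287 and 0.0319, which lie opposite CFLAR, KDM4A and PLEKHM2. With 2 libraries this likeness is one of level.

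The other genes of the megakaryocyte programme were read from 5 lists by role, together 68 genes, all measured. Of these, 31 (45.6%) reached 10 counts in each library, against 24.8% of protein-coding genes, and their median was 3.24 log2 CPM against 1.78. Of the 38 with an opposite-strand gene, 24 (63.2%) reached the minimum, against 36.6% of such protein-coding genes. Of the 30 without one, 7 (23.3%) did, against 12.3%. The opposite-strand sum was the higher in both replicates for 22 of the 38 (57.9%), against 51.0%. The exact binomial test between replicates called 0 of the 68, and 3 had an unadjusted p below 0.05. These lists include the 8 megakaryocyte genes above, which were chosen with their counts known. The lists too were chosen with earlier results of these data known, so the differences from all protein-coding genes are descriptions.

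**Figure D4:**
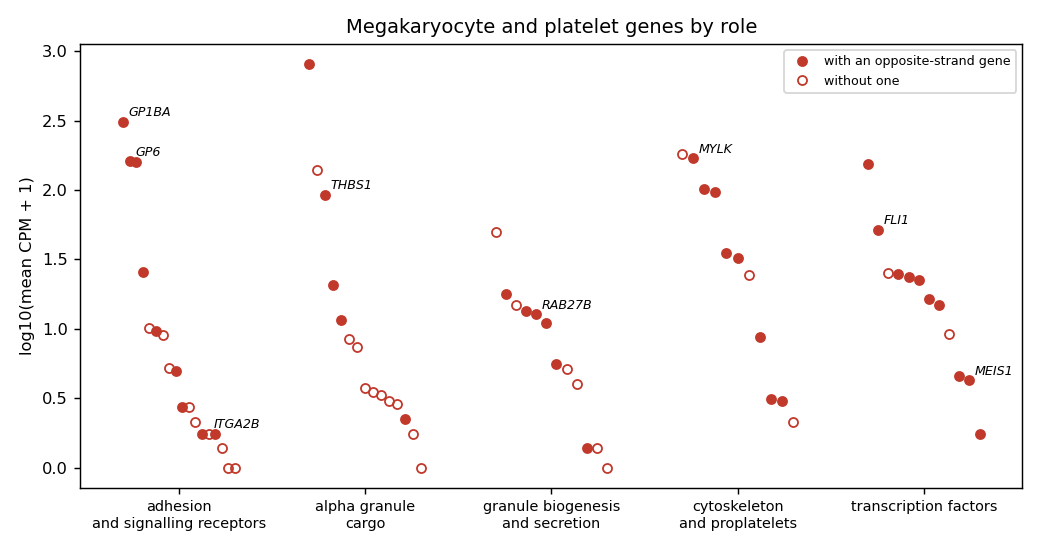
Level of each of 68 megakaryocyte and platelet genes as log10 of mean CPM plus 1, by role and ordered from high to low within a role, with filled points for genes that have an opposite-strand gene and open points for genes without one. The genes described above are named, and they run from GP1BA at the top of its list to ITGA2B near the bottom of it.

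Of 18 adhesion and signalling receptors, 5 reached the minimum. After GP1BA and GP6 the highest was P2RY12, the platelet ADP receptor, with 158 and 212 counts, against 53 and 113 opposite. ITGB3, the beta chain that pairs with ITGA2B, held 0 and 2 counts, against 200 and 321 opposite (chosen after its values were seen). FCER1G, the signalling chain of glycoprotein VI, and GP1BB, which pairs with GP1BA, were at 0 in both libraries.

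Alpha granule cargo gave 5 of 15 genes at the minimum. TGFB1, a growth factor released from the granules, led with 788 and 1107 counts, against 379 and 496 opposite, and the adhesion protein gene FN1 followed with 156 and 162 and no opposite-strand gene. PF4, the platelet chemokine, was at 0. In granule biogenesis and secretion 6 of 12 did, led by VPS33B with 54 and 59 counts and VIPAS39, its binding partner, with 16 and 24. UNC13D, a vesicle priming factor, held 13 and 20, and STX11 was at 0.

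Cytoskeletal genes reached it in 7 of 11 cases. WAS, an actin regulator, held 189 and 236 counts with no opposite-strand gene, and MYL9, a myosin light chain, held 88 and 153, against 168 and 211 opposite. Transcription factors reached it in 8 of 12. MEF2C held 159 and 195 counts, against 418 and 509 opposite, and ETV6 held 24 and 33 with no opposite-strand gene. TAL1, chosen after its values were seen, held 22 and 28, against 2760 and 3925 for AL135960.1 on its other strand.

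Finally, the partners were set beside all antisense genes that overlap a protein-coding gene, by how many 3′ splice sites of that coding gene lie inside their exons. This split was chosen after the values were seen. The median was 9.58 counts per kb of exon over both libraries for 3461 genes with none, 50.1 for 895 genes with 1 and 93.9 for 414 genes with 2 or more such sites. Median exon length also differed, at 639, 770 and 1938 bases in that order, and its part in the order was not tested. AC037198.2, with 1 site and 19949 counts per kb, lay far above the upper quartile of its class of 307, while MYLK-AS1, also with 1 site, held 157. AC098848.1, MEIS1-AS2, AC011476.3 and SENCR, with none, held 2690, 1173, 611 and 498 counts per kb, above the upper quartile of 60.2. Of the others with none, MYLK-AS2 held 48.4, and AC020634.1 and MEIS1-AS3 held 1.82 and 1.41, below the class median. AC098848.1, MEIS1-AS2, AC011476.3 and SENCR thus hold no annotated 3′ splice site of the gene they oppose.

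**Figure D5:**
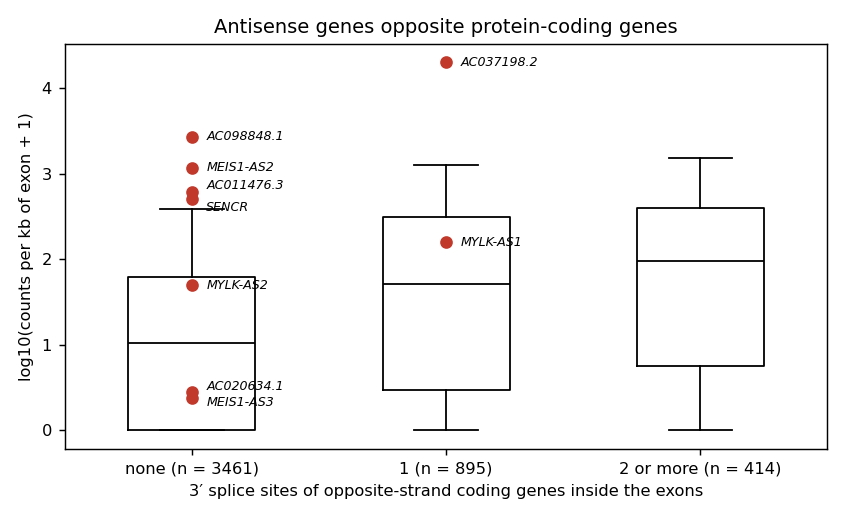
Counts per kb of exon over both libraries, as log10 of the value plus 1, of antisense genes opposite protein-coding genes, by the number of 3′ splice sites of those genes inside their exons (boxes, quartiles and median; whiskers, 5th to 95th percentile), with the partners of the megakaryocyte loci as red points. AC037198.2 stands above its whole class box, AC098848.1, MEIS1-AS2, AC011476.3 and SENCR stand above theirs, and AC020634.1 and MEIS1-AS3 lie below their class median.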

How the data were processed

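The deposited table held raw read counts per gene as whole numbers, with 4 further tallies that name no gene (no feature, ambiguous, multimapping and unmapped reads), which stayed out of library sizes. Of uniquely mapped reads 97.3% and 97.4% were tallied as no feature, and multimapping reads were 22.1% and 20.7% of all reads. Per the labels' protocols, reads were paired-end, of 100 bases. The genome build was GRCh38.p10 and the tools were STAR 2.7.0f and cutadapt, per the submitters' processing notes. Strand setting, counting tool, annotation release and treatment of PCR duplicates are not given in the sources used here. Where duplicates remain, counting intervals are too narrow. The labels call the libraries biological replicates.

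Symbols, spans and exons came from GENCODE 29 (GRCh38), matched by identifier without version. Among the members, 8 of 10 identifiers had the same version there. An opposite-strand gene was any gene sharing at least 1 base of span. Libraries were scaled by TMM in edgeR 4.0.16 (R 4.3.3), with DESeq2 1.42.0 size factors and plain totals as alternatives, with a prior count of 2 in log2 CPM. With 1 group no quasi-likelihood test could be fitted, so the replicates were compared by an exact binomial test over genes at 10 or more counts in both libraries, threshold 0.05 after Benjamini-Hochberg adjustment. The test was tested on simulated data. With no genome at hand, 3′ splice site sequence was read only where a transcript spans the site. Named genes were all members, their partners, the 3 highest genes and those at 0 of each role list, and the 3 genes nearest in level to AC037198.2 and GP1BA. The members and lists were chosen with earlier results of these data known. Python 3.11.15, numpy 2.4.6, scipy 1.17.1, pandas 2.3.3 and matplotlib 3.10.9 were used. One splice site sequence is not reported here.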

Additional observations from a re-analysis of the deposited data

How the results depend on the processing

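The number of loci whose opposite-strand sum was the higher was 6 of 9 by span, by exon on exon and by span over exons, and 6 of 7 when the opposite gene had to lie at least 50% within the locus. It was 7 of 9 per kb of exon, where MYLK joined the 6. It was 5 of 6 when at least 50% of the partner's exon bases had to lie within the locus, a setting added after seeing the data. Leaving out either replicate gave 6. Genes with enough counts numbered 8 at minimums of 10 and 5, 7 at 20, and 8 without either replicate. The replicate test called 0 members under each scaling, without a count filter and by edgeR's exact test, while calls over all genes were 45 by TMM, 49 by DESeq2 size factors, 48 by plain totals, 71 with no filter and 9 by edgeR. No paired analysis was possible because the study has only 1 group. The role list medians of receptors and of granule cargo depend on the prior count, at 2.10 and 2.09 log2 CPM with 2 and 1.54 each with 0.5. Without replicate 2 the cargo median was 2.50, and without replicate 1 the cytoskeleton and transcription factor medians were 4.81 and 4.43, against 5.01 and 4.30. With 20 in place of 40 intron bases the median pyrimidine share moved at all 8 genes with sequence: it was higher at 7, most at GP6 (80% against 58.8%), and lower at MEIS1 (70% against 73.8%). Over all 36221 sites with sequence the median was also higher, at 65% with 20 bases against 62.5% with 40. The medians of GP6, RAB27B and FLI1 rest on 2 sites each. Single genes under 10 counts, MEIS1 and ITGA2B, are limited by depth.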

Other observations

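Several genes outside the 10 loci also held fewer counts than their opposite-strand sums, as values only and chosen after they were seen. This order is common, as it held for 51.0% of the 10230 protein-coding genes with an opposite-strand gene. The sums are counts of whole genes that overlap by span, and not of the strands of a locus. DIAPH1, a regulator of actin and microtubules in platelet release, held 1 and 4 counts, against 925 and 1288 on the other strand. MYB, a transcription factor of hematopoietic progenitors, held 20 and 34, against 481 and 585. RAB27A, the close relative of RAB27B, held 0 and 1, against 188 and 260, and ZFPM1, a cofactor of GATA1, held 0 and 2, against 216 and 259. The reverse order was seen for TGFB1, P2RY12 and TUBB1, the platelet beta tubulin, which held 97 and 125 counts, against 40 and 48 opposite. GATA1, which has no opposite-strand gene, held 6 and 14 counts.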
